A study of Mus musculus with 6 samples.

Results

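The genes described here are 10 genes of the hypoxia-inducible factor (HIF) pathway and of collagen hydroxylation, chosen by name and found by their identifiers in the gene table of the series. They are Hif1a, the HIF prolyl hydroxylase genes Egln1 and Egln3, the collagen prolyl hydroxylase genes P4ha1 and P4ha2, the lysyl hydroxylase genes Plod1 and Plod2, and the HIF target genes Ndrg1, Bnip3 and Ankrd37. All 10 were among the 14095 genes tested, of 23951 genes in the table. The study read out messenger RNA from TT2 mouse embryonic stem (ES) cells, on a C57BL6 x CBA background, at passage 5 and cultured without feeder cells, to compare wild-type (WT) cells with cells in which Alkbh1 was knocked out (KO). There were 2 WT libraries and 4 KO libraries, the latter from 2 clones with 2 libraries each, and the labels do not say which part of Alkbh1 was removed. The authors' table holds 1 pooled value per gene and condition, in FPKM (fragments counted per kilobase of transcript and scaled to library size), so no value below carries an SD, the sequencing depth is unknown, and a difference between genotypes cannot be told apart from one between clones. Nothing in the labels says that the WT libraries, or the libraries of 1 KO clone, came from separate cultures. Apart from the difference between the KO clones, a q-value may therefore measure technical spread alone.

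HIF is a transcription factor made of an oxygen-labile alpha subunit, such as the product of Hif1a, and a stable partner encoded by Arnt. In the presence of oxygen, the prolyl hydroxylases encoded by the Egln genes hydroxylate the alpha subunit, which the von Hippel-Lindau protein (Vhl) then marks for destruction. When hydroxylation falls, HIF accumulates and binds a short motif with the core ACGTG or GCGTG near its targets, several of which encode the Egln enzymes themselves. The collagen prolyl and lysyl hydroxylases use the same cofactors, iron and 2-oxoglutarate, as the Egln enzymes and as the AlkB family to which Alkbh1 belongs. They modify collagen chains in the endoplasmic reticulum, which allows the triple helix to fold and crosslinks to form, and P4ha1, P4ha2 and Plod2 are also known HIF targets.

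The stretches directly before the transcription start are shown for 5 members, because the HIF motif can be looked for there. P4ha1 and P4ha2 were among the 3 members that rose by over 2-fold, Bnip3 had the most matches, Hif1a was the member that fell, and Ankrd37 did not pass the test. RefSeq promoter windows (build GRCm38.p6) were matched by symbol for 8 members, that is for all but Ndrg1 and Plod2. Each sequence below is the 250 bases before the start, 5′ to 3′ on the strand of the gene, with ACGTG and GCGTG on either strand in capitals. The windows are chr10:59323046-59323295 (plus strand) for P4ha1, chr11:54100674-54100923 (plus strand) for P4ha2, chr7:138909507-138909756 (minus strand) for Bnip3, chr12:73907617-73907866 (plus strand) for Hif1a and chr8:45999851-46000100 (minus strand) for Ankrd37.
P4ha1: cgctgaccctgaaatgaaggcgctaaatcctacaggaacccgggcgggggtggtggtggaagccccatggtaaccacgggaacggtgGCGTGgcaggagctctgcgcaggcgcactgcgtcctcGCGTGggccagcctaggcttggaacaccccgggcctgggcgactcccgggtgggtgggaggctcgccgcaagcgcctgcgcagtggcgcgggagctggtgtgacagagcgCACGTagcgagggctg
P4ha2: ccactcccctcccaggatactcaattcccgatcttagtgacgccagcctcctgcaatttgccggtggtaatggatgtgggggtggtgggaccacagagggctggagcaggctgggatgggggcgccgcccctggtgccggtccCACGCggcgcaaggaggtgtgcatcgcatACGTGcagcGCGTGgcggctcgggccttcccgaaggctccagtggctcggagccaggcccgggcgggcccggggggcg
Bnip3: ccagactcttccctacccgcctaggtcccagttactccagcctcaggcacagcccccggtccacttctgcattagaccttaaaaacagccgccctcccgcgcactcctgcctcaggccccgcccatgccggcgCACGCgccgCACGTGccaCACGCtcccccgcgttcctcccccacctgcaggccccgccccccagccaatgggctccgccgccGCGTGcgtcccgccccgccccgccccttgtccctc
Hif1a: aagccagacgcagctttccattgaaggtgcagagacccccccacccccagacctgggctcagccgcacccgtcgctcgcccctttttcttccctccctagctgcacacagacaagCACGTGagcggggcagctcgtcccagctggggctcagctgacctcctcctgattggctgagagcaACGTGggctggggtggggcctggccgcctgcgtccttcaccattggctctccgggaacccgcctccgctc
Ankrd37: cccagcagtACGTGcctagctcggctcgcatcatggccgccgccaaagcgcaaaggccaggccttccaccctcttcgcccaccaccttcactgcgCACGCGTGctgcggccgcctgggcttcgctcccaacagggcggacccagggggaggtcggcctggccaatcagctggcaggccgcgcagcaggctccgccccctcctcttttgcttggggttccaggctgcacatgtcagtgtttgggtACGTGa

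Every one of the 8 windows, taken from 250 bases before to 50 bases after the start, held at least 1 of the motifs. Bnip3 had 5 matches, P4ha2 and Ankrd37 had 4 each, P4ha1 and Hif1a 3 each, Egln1 and Plod1 2 each and Egln3 1. Some matches overlap, since ACGTG and its reverse complement share bases in the palindrome within the Bnip3 and Hif1a sequences, and GCGTG overlaps its own reverse complement in that of Ankrd37. The motif core is common: it was present in 60.8% of the 13222 windows of other tested genes and in 43.8% of all 32851 windows. Among the 8162 windows of other tested genes whose number of CpG dinucleotides lay within the members' range, from 16 to 60, the share was 73.3%. The windows with a match thus included those of Hif1a, which fell, of Egln3 and Ankrd37, which were not called, and of members that rose. Because overlapping matches were counted separately, the numbers of matches were not compared with the fold changes. A match is a string of letters and was not tested for binding.

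In KO cells 7 members rose and 1 fell, by the authors' test at q under 0.05. In that test, which covers all genes, 50.8% of tested genes were called, 22.4% as higher and 28.4% as lower. Ndrg1, P4ha2 and P4ha1 rose by over 2-fold, as did 9.04% of tested genes. The median log2 fold change of KO over WT was 0.66 over the 10 members and -0.06 over all tested genes. The members were picked with earlier results of these data in view, so these counts describe them and do not test them as a list. In RNA of a whole culture, a change in the share of cells that express a gene and a change in its RNA per cell cannot be told apart.

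**Figure D1:**
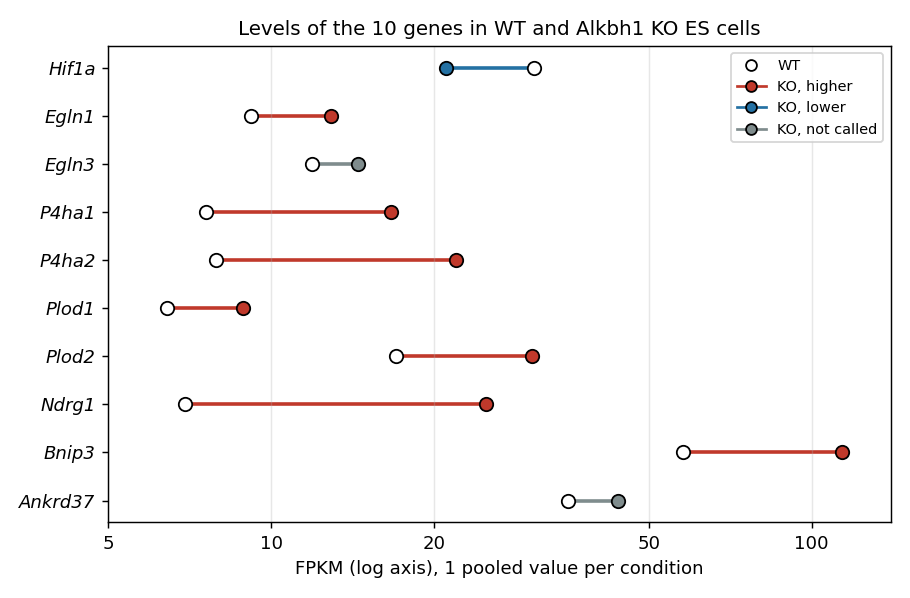
Level of each of the 10 genes in FPKM (log axis), with 1 pooled value for WT (open circles) and 1 for Alkbh1 KO (filled circles), joined by a line coloured by the authors' call. Hif1a is the single member whose KO value lies left of its WT value, from 30.6 to 21.1 FPKM, and Ndrg1 has the longest line, from 6.93 to 25.02 FPKM.

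The transcription factor gene Hif1a was the exception among the members. Hif1a (chromosome 12, 75008853 to 75048517, mm9) stood at 30.6 FPKM in WT against 21.1 FPKM in KO, a log2 fold change of -0.54 with q = 0.00163 by the authors' deposited table. Its fall depended on scaling: with the FPKM sums of both conditions set equal, the log2 fold change of Hif1a was 0.11. Against genes of its own level it was not unusual, since 32.8% of the genes in the same decile by mean FPKM had a lower fold change. Hif1a stood at -0.20 less the median of that decile. Less the median of genes alike in both level and transcript length, Hif1a stood at -0.38. The gene of the second alpha subunit, Epas1, rose from 6.003 to 11.8 FPKM (q = 0.000206, the smallest value of the authors' deposited table, shared by 3418 genes). The ratio of Hif1a to Epas1 levels was 5.10 in WT and 1.78 in KO, and this ratio does not depend on the scaling between conditions. Hif3a, which encodes a further alpha subunit with inhibitory splice forms, rose from 0.386 to 1.30 FPKM by the authors' deposited table. Over the 3 alpha genes the sum was 37.0 FPKM in WT against 34.2 FPKM in KO (53.8 FPKM with equal sums), of which Hif1a made up 82.7% and 61.7%. The partner gene Arnt did not pass the test, at 19.0 and 21.1 FPKM (q = 0.455) by the authors' deposited table.

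Of the HIF prolyl hydroxylases, 1 of the 2 members passed. Egln1 (chromosome 8, 127432486 to 127473154, mm9), the main oxygen sensor of the family in most tissues, rose from 9.19 to 12.9 FPKM, a log2 fold change of 0.49 with q = 0.00903 by the authors' deposited table. Egln3 (chromosome 12, 55279967 to 55304861, mm9), which HIF itself induces in many cells, stood at 11.9 FPKM in WT against 14.5 FPKM in KO and was not called (0.28, q = 0.152 by the authors' deposited table). The paralog Egln2, which is not regarded as a hypoxia-induced gene, fell from 13.2 to 8.65 FPKM by the authors' deposited table, with a log2 fold change of -0.61 (q = 0.00134) as deposited and 0.04 with equal sums. The order of the 3 genes by level thus ran Egln2, Egln3, Egln1 in WT and Egln3, Egln1, Egln2 in KO. Egln2 made up 38.6% of their summed FPKM in WT and 24.0% in KO, while Egln1 made up 26.8% and 35.8%. The sum itself was 34.3 FPKM in WT against 36.01 FPKM in KO, or 56.6 FPKM in KO with equal sums. With no value per library, these shares have no error, and neighbours in the order could not be tested against each other.

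**Figure D2:**
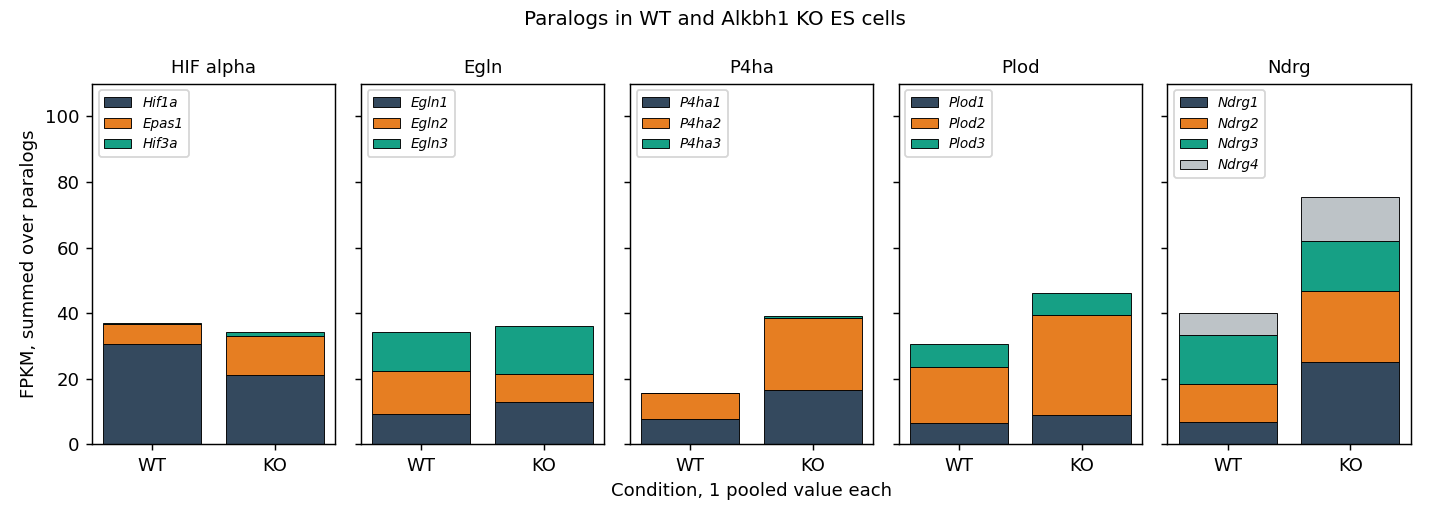
Stacked FPKM of the paralogs of each family in WT and Alkbh1 KO cells, with 1 pooled value per gene and condition and no error bars. The P4ha stack is 15.7 FPKM high in WT and 39.0 FPKM in KO, while the stacks of HIF alpha genes (37.0 and 34.2 FPKM) and Egln genes (34.3 and 36.01 FPKM) are of similar height at the deposited scaling, with a different make-up. With equal sums the KO stacks of these 2 families would be 53.8 and 56.6 FPKM high.

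All 4 collagen hydroxylase genes among the members rose. The P4ha genes encode the catalytic alpha subunits that hydroxylate proline in collagen. P4ha1 (chromosome 10, 58786043 to 58836052, mm9) rose from 7.58 to 16.7 FPKM, a log2 fold change of 1.14, and P4ha2 (chromosome 11, 53914425 to 53945169, mm9) from 7.92 to 21.97 FPKM, a log2 fold change of 1.47, both with q = 0.000206 by the authors' deposited table. The pair was nearly level in WT, with a P4ha2 to P4ha1 ratio of 1.05, against 1.32 in KO. The third subunit gene, P4ha3, was near the lower end of expression and rose from 0.209 to 0.419 FPKM (q = 0.0205) by the authors' deposited table. It made up 1.33% of the sum of the 3 genes in WT and 1.07% in KO. P4hb encodes the beta subunit, protein disulphide isomerase, which the enzyme shares with other folding reactions. It did not pass the test, at 315 FPKM in WT against 248 FPKM in KO (q = 0.0528) by the authors' deposited table. The ratio of P4hb to the summed alpha subunits was 20.02 in WT and 6.36 in KO. Genes of these levels also differed, with a median log2 fold change of -0.72 in the decile of P4hb by mean FPKM. In the decile of P4ha1 and P4ha2 the median was -0.15. The log2 fold change of P4hb was -0.34 as deposited, 0.38 less its decile median and 0.31 with equal sums.

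The Plod genes encode the enzymes that hydroxylate lysine in collagen, and Plod2 acts on the telopeptides from which stable crosslinks form. Plod2 (chromosome 9, 92433638 to 92503265, mm9, where the table also places B430319G15Rik) rose from 17.0 to 30.4 FPKM, a log2 fold change of 0.84 with q = 0.000206 by the authors' deposited table. Plod1 (chromosome 4, 147283861 to 147310885, mm9) rose less, from 6.43 to 8.88 FPKM, a log2 fold change of 0.47 with q = 0.0162 by the authors' deposited table. The third paralog, Plod3, whose region in the table also holds Znhit1 and Mir702, was not called, at 7.26 and 6.68 FPKM (q = 0.668) by the authors' deposited table. Plod2 was the most abundant of the 3 in both conditions, with 55.4% of their sum in WT and 66.2% in KO. Whether Plod2 differed from Plod1 in its response could not be tested from pooled values, and the Plod2 to Plod1 ratio was 2.65 in WT and 3.43 in KO.

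The 3 remaining members are HIF targets with other functions. Ndrg1 (chromosome 15, 66760879 to 66801203, mm9), a stress-responsive gene linked to differentiation and growth arrest, had the highest fold change of the members, 1.85 on the log2 scale with q = 0.000206, at 6.93 FPKM in WT against 25.02 FPKM in KO by the authors' deposited table. Among genes in the same decile by level, 99.9% had a lower fold change. Of its paralogs, Ndrg2 rose 1.90-fold to 21.7 FPKM and Ndrg4 2.04-fold to 13.4 FPKM (q = 0.000206 for both) by the authors' deposited table, while Ndrg3 stood at 15.1 and 15.3 FPKM (q = 0.930). Ndrg1 was number 3 of the 4 in WT, with 17.3% of their summed FPKM, and first in KO, with 33.2%.

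Bnip3 (chromosome 7, 146082518 to 146101189, mm9), which encodes a mitochondrial outer membrane protein that promotes mitophagy, rose from 57.9 to 114 FPKM, a log2 fold change of 0.98 with q = 0.000206 by the authors' deposited table. It was the most abundant member in both conditions. In the decile of genes with the highest levels, where 1.56% of genes were called higher and 76.6% lower, 99.4% had a lower fold change than Bnip3. Its paralog Bnip3l, also a mitophagy receptor, was not called, at 60.7 and 56.5 FPKM (q = 0.592) by the authors' deposited table. The ratio of Bnip3 to Bnip3l was 0.955 in WT and 2.02 in KO.

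Ankrd37 (chromosome 8, 47060881 to 47085204, mm9), a small ankyrin repeat gene known as a direct HIF target, was not called, at 35.4 FPKM in WT against 43.8 FPKM in KO (0.31, q = 0.374 by the authors' deposited table). The table gives the same region for Ufsp2, which fell from 49.2 to 35.9 FPKM (q = 0.0332) by the authors' deposited table, so how reads were divided between these genes is uncertain. Although it missed the threshold, the fold change of Ankrd37 lay above that of 95.1% of genes in its decile by level.

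The level of a gene moved with its fold change across the whole table, and the members are set against that trend in the plot of fold change against level. From the lowest to the highest decile by mean FPKM, the median log2 fold change ran from 0.69 to -0.72. Of the 10 members, 9 (all but Hif1a) lay above the median of their own decile, and 6 lay above more than 90% of it. With the median of each gene's decile subtracted, the members' median was 0.9998, and the single values ran from -0.20 for Hif1a to 2.005 for Ndrg1. Fold changes also moved with the length of the longest annotated transcript, with medians from -0.46 in the shortest to 0.44 in the longest decile. Ankrd37 (927 bases) and Bnip3 (1756 bases) fall in deciles of length with medians of -0.46 and -0.29, and Hif1a (4724 bases) in one with a median of 0.07. With classes formed from both level and length, 9 of 10 members again lay above the median of their class.

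**Figure D3:**
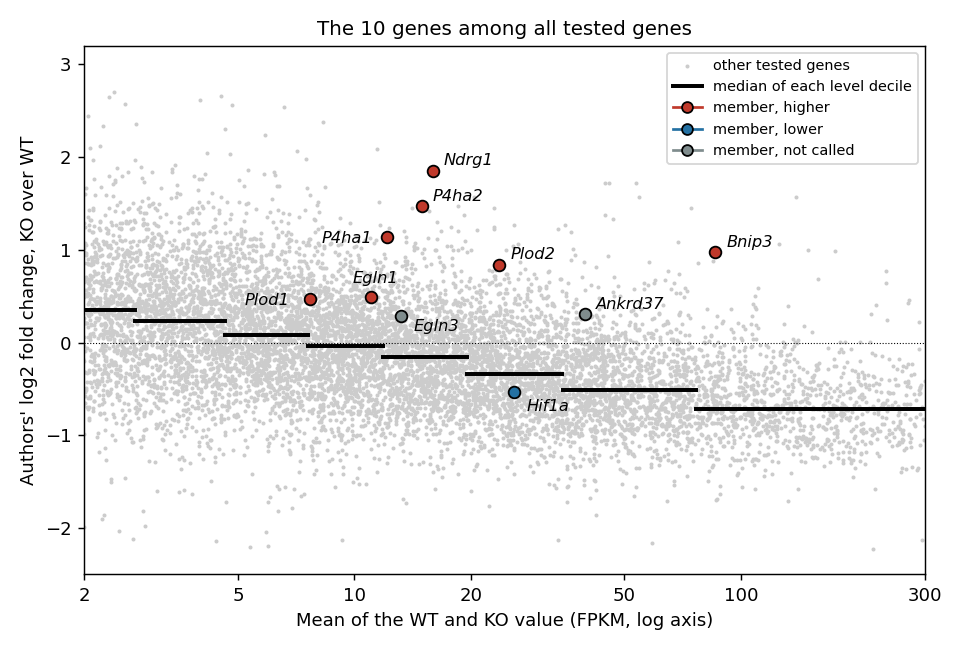
Authors' log2 fold change of KO over WT against the mean of both values (FPKM, log axis) for tested genes between 2 and 300 FPKM, with the 10 members coloured by call and black bars at the median of each decile by level. Genes outside the drawn range are not shown. Hif1a lies below the bar of its decile and the other 9 members lie above theirs.

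The choice of scaling shifted all members by 1 amount and changed 1 direction. With equal sums, every log2 fold change was higher by 0.65, because the summed FPKM over tested genes was 981679 in WT against 624340 in KO, and all 10 members lay above 0. Recentring on genes of at least median level raised every value by 0.37 and left Hif1a at -0.17. No call was retested at another scaling, so values with equal sums show a direction and carry no test.

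**Figure D4:**
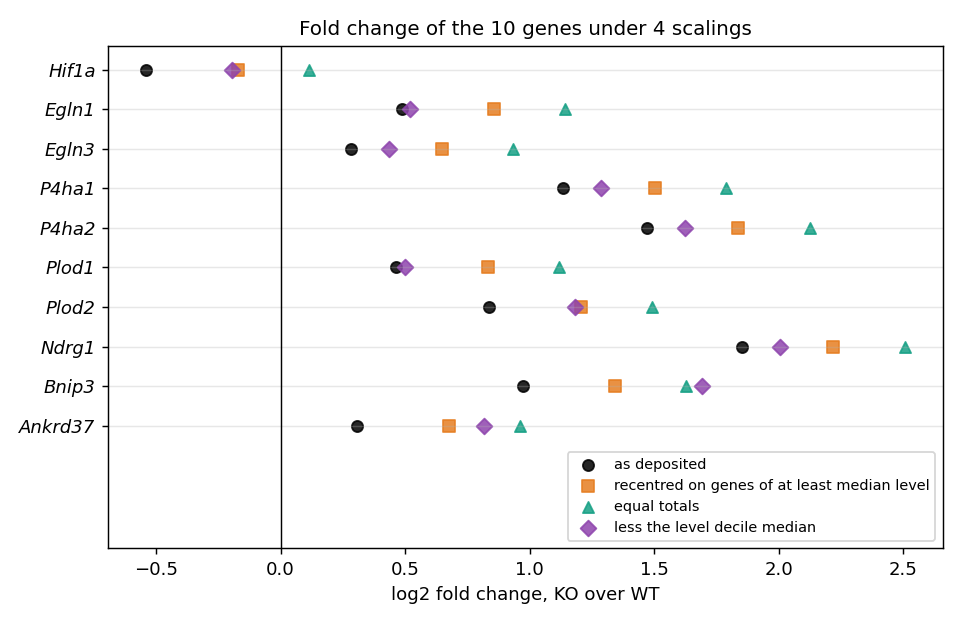
Log2 fold change of KO over WT for each of the 10 genes as deposited, recentred on genes of at least median level, with equal sums, and less the median of the gene's decile by level. Hif1a is the single gene with values on both sides of 0, from -0.54 to 0.11, and Ndrg1 ranges from 1.85 to 2.51.

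Other regulators of HIF moved both ways, in shares near those of all genes. Of 14 tested regulators, 4 were called higher (28.6%) and 5 lower (35.7%), against 22.4% and 28.4% of all tested genes. Their median log2 fold change was -0.12 as deposited and turned to 0.53 with equal sums, 0.25 after recentring on genes of at least median level and 0.10 less the level decile median. Those that rose were Epas1 and Hif3a, given above, and the coactivator genes Crebbp (1.36) and Ep300 (0.72) by the authors' deposited table. Crebbp and Ep300 have long transcripts, of 10820 and 9566 bases, and stood at 0.82 and 0.45 above the median of their level and length class. Those that fell were Egln2, given above, Vhl (-0.39) and the genes of subunits of the ubiquitin ligase that works with it, Cul2 (-0.54), Tceb1 (-0.98) and Rbx1 (-1.03), by the authors' deposited table. With equal sums, Vhl (0.27) and Cul2 (0.11) would lie above 0, and Tceb1 (-0.33) and Rbx1 (-0.38) below it. Less the level decile median, Vhl stood at -0.23, Cul2 at -0.03, Tceb1 at -0.26 and Rbx1 at -0.31. Tceb1 and Rbx1 lay in the highest decile by level, where 76.6% of genes were called lower. Tceb2, a further subunit gene of this ligase, was not called, at 339 FPKM in WT against 242 FPKM in KO (q = 0.429) by the authors' deposited table. Hif1an, which encodes the asparaginyl hydroxylase that limits HIF activity, was not called, at 9.49 and 11.5 FPKM (q = 0.139) by the authors' deposited table.

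Among HIF targets outside the 10 members, more were called higher than lower. Of 25 tested targets outside the list of glycolytic targets given below, 13 were higher (52%), 3 lower (12%) and 9 not called. Over all tested genes, 22.4% were called higher and 28.4% lower. Adjusting only over genes above the lowest 25% by level left 9 higher and 3 lower. The median log2 fold change of the 25 was 0.58 as deposited, 0.31 with a pseudocount of 1 and 1.23 with equal sums. It was 0.41 less the level decile median, and 0.26 over those above the lowest 25% of genes by level. The largest rise was that of the angiogenic growth factor gene Vegfa, from 8.48 to 22.7 FPKM (1.42, q = 0.000206) by the authors' deposited table. Ero1l, an oxidase that supports disulphide formation, rose from 22.1 to 50.6 FPKM, and Tfrc, the transferrin receptor gene, from 99.6 to 199 FPKM by the authors' deposited table. Those that fell were the haem oxygenase gene Hmox1 (-0.85), the mitophagy receptor gene Fundc1 (-0.82) and the mitochondrial gene Higd1a (-0.48) by the authors' deposited table, of which Higd1a would stand at 0.17 with equal sums. Of 17 tested glycolytic targets, 11 were called higher and 0 lower by the authors' test, as were 11 and 0 at an unadjusted p under 0.05. The aldolase gene Aldoc led them, from 12.3 to 33.7 FPKM (1.45) by the authors' deposited table. The well-known targets Ldha (q = 0.634) and Pdk1 (q = 0.586) were not called by the authors' deposited table.

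Other genes of collagen maturation were called in shares near those of all genes. Of 17 tested genes for collagen folding, modification and crosslinking, 3 were called higher (17.6%), 4 lower (23.5%) and 10 not called, against 22.4% and 28.4% of all tested genes. Their median log2 fold change was -0.26 as deposited, 0.39 with equal sums and 0.11 after recentring on genes of at least median level. The collagen chaperone gene Serpinh1 fell from 28.8 to 18.9 FPKM, and 2 genes of the complex that hydroxylates proline at the 3 position, Crtap and Ppib, fell too, Crtap to 22.9 FPKM from 39.6 and Ppib to 89.7 FPKM from 160, by the authors' deposited table. Pcolce, an enhancer of procollagen processing, fell from 47.9 to 27.6 FPKM by the authors' deposited table. With equal sums Serpinh1 would stand at 0.05, and Crtap (-0.13), Pcolce (-0.14) and Ppib (-0.18) would still lie below 0. In the table, the regions of Crtap and Ppib also hold another gene. Those that rose, P4ha3, Bmp1 and the lysyl oxidase-like gene Loxl4, all stood under 1 FPKM in both conditions, with Loxl4 at 0.209 and 0.837 FPKM by the authors' deposited table.

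Collagen chains themselves were scarce, except Col18a1. It stood at 20.1 FPKM in WT against 21.0 FPKM in KO and was not called (q = 0.769) by the authors' deposited table. Of the 16 chain genes listed, 9 were tested, of which 6 were called higher and 0 lower by the authors' test (7 and 0 at an unadjusted p under 0.05). Of these 9, 7 lay in the 2 lowest deciles by level, where 41.3% and 40.1% of genes were called higher and 5.46% and 7.88% lower. Their median log2 fold change was 0.80 as deposited, 0.33 with a pseudocount of 1, 0.40 less the level decile median and 0.06 less the level and length class median. The 7 chain genes left untested were of low level, so the counts and the median do not stand for all 16. The basement membrane chains Col4a1 and Col4a2, substrates of the hydroxylases above, rose 1.74-fold to 4.87 FPKM and 1.86-fold to 1.75 FPKM, and Col5a3 rose furthest, from 0.434 to 1.09 FPKM, by the authors' deposited table. These chains have long transcripts: Col4a1 and Col4a2 stood at 0.26 and 0.03 above the median of their level and length class.

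Other enzymes that depend on 2-oxoglutarate were called in both directions. Of 14 tested hydroxylases that act on proteins, RNA or small molecules, 2 were called higher (14.3%), 5 lower (35.7%) and 7 not called. Over all tested genes, 22.4% were called higher and 28.4% lower. The median log2 fold change of the 14 was -0.32 as deposited and 0.33 with equal sums. Phyhd1 rose from 1.76 to 3.42 FPKM and Asph, an aspartyl hydroxylase gene, from 9.73 to 13.1 FPKM (q = 0.0421) by the authors' deposited table. Tyw5, which hydroxylates a modified base of transfer RNA, fell furthest, from 53.1 to 19.3 FPKM (-1.46), followed by Phyh (-0.76), Jmjd6 (-0.70), Mina (-0.54) and Jmjd4 (-0.40) by the authors' deposited table. Mina (0.11) and Jmjd4 (0.25) would lie above 0 with equal sums. The regions of Tyw5, Mina and Asph in the table also hold another gene.

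**Figure D5:**
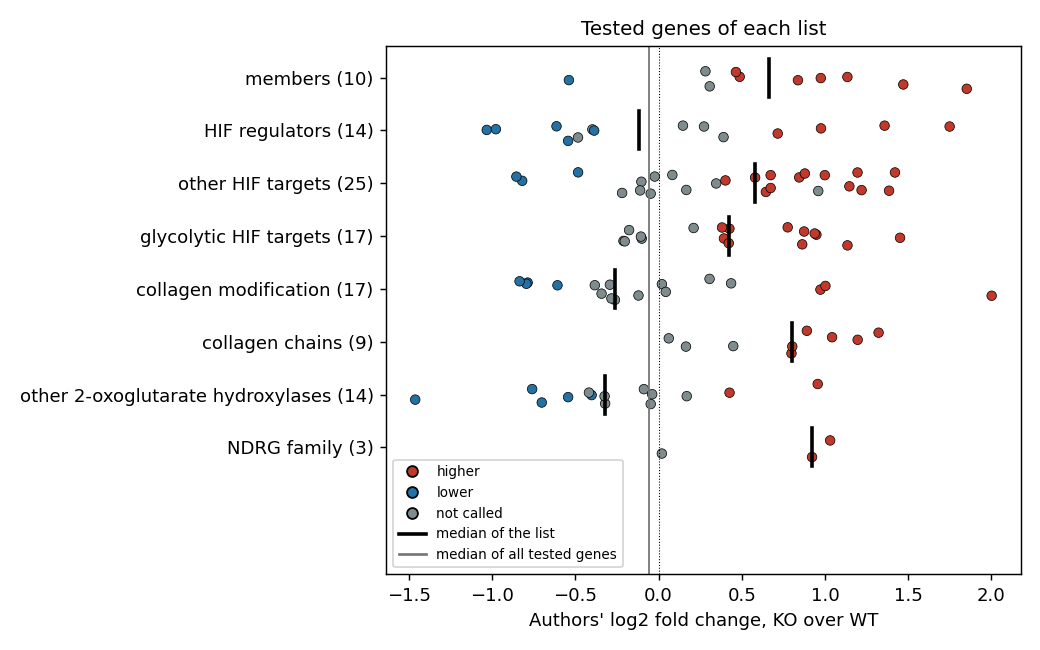
Authors' log2 fold change of KO over WT for the tested genes of each list (number tested in parentheses), with 1 point per gene coloured by call, a black bar at the median of each list and a grey line at the median of all tested genes, -0.06. Points are spread vertically for legibility. The members (median 0.66) and the other HIF targets (0.58) lie mostly to the right of 0, and the genes of collagen modification (-0.26) lie on both sides.

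The cells carried the ES cell markers that their label implies, and markers of other cell types were called in both directions. The 10 ES cell markers summed to 7690 FPKM in WT against 4737 FPKM in KO. Of the 9 tested, 7 were called lower, as were 76.6% of all genes in the highest decile by level, and Utf1 fell furthest (-0.90, or -0.25 with equal sums) by the authors' deposited table. Their median log2 fold change was -0.76 as deposited and -0.04 with each gene's decile median subtracted. The tested markers' KO sum was 59.8% of the WT sum, against 63.6% over all tested genes. Of 14 fibroblast markers, which would mark cells rich in collagen enzymes, 3 were called higher, 3 lower and 8 were not tested. Each direction thus held 50% of the 6 tested, against 22.4% higher and 28.4% lower over all tested genes. Those that rose were Thy1, from 6.43 to 9.39 FPKM, Pdgfrb, from 0.318 to 0.895 FPKM, and Col1a1, from 0.322 to 0.664 FPKM, by the authors' deposited table. Those that fell were Vim (-1.48), Twist1, from 0.707 to 0.321 FPKM (-1.14), and Acta2, from 0.544 to 0.110 FPKM (-2.31), by the authors' deposited table. Pdgfrb, Col1a1, Twist1 and Acta2 lay in the lowest decile by level, where 41.3% of genes were called higher and 5.46% lower. Less the level decile median, Thy1 stood at 0.58, Pdgfrb at 0.80 and Col1a1 at 0.35. On the same scale, Vim stood at -0.97, Twist1 at -1.83 and Acta2 at -3.01. The summed level of the 14 was 70.0 FPKM in WT against 34.0 FPKM in KO, most of it Vim (61.4 and 21.99 FPKM), and Lum, Postn, Col3a1 and Twist2 were listed at 0 in WT.

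Of 15 markers of extraembryonic endoderm, which also makes basement membrane collagen, 4 were called higher, 3 lower, 2 not called and 6 not tested. Of the 9 tested, these are 44.4% higher and 33.3% lower, against 22.4% and 28.4% of all tested genes. Those that rose were the transcription factor gene Gata4, from 0.345 to 0.557 FPKM, the laminin gene Lama1, from 2.10 to 3.68 FPKM, and Col4a1 and Col4a2, given above, by the authors' deposited table. Those that fell were Dab2 (-0.85), Sox7 (-1.07) and Pth1r (-1.21) by the authors' deposited table. By level, Gata4 lay in decile 1 (the lowest), Col4a2 in decile 2, and Col4a1 and Lama1 in decile 4. In these deciles, 41.3%, 40.1% and 33.3% of genes were called higher. Dab2, Sox7 and Pth1r lay in decile 2, where 7.88% of genes were called lower. The summed level of the 15 was 212 FPKM in WT against 179 FPKM in KO, most of it Sparc (185 and 152 FPKM), which was not called. The 6 markers not tested were of low level and lay in both directions by the authors' deposited table. Gata6 stood at 0.196 FPKM in WT against 0.260 FPKM in KO, and Sox17 at 0.0665 against 0.140 FPKM. Pdgfra stood at 0.191 FPKM in WT against 0.392 FPKM in KO, and Ttr at 0.0239 against 0.0403 FPKM. Foxa2 was lower in KO, at 0.0830 FPKM in WT against 0.0141 FPKM, as was Afp, at 0.0823 against 0.0478 FPKM. The part of these cell types in the members' values was not tested. Alkbh1 itself was not called, at 33.9 FPKM in WT against 18.1 FPKM in KO (q = 0.0943) by the authors' deposited table, which places Snw1, Slirp, Nrp and Mir3068 in the same region, so its value is uncertain.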

How the data were processed

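Libraries were made with a strand-specific messenger RNA kit, per the labels' protocols, and aligned with TopHat2 to mm9, per the submitters' processing notes. The sources used here give no aligner version, annotation or scaling between libraries. The FPKM, log2 fold change, test score, p-value and q-value are those the authors deposited, in the layout of a Cuffdiff table per the file headers, with 1 FPKM value per condition. No new test of expression was run; a call is a deposited q under 0.05, over all tested genes. The deposited q-value equalled a recomputed Benjamini-Hochberg adjustment to within 5.18e-07.

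Genes were grouped into 10 classes by mean FPKM, and class medians left out the 56 tested genes listed at 0 in 1 condition. Lengths are those of the longest GENCODE M21 transcript (99.2% of tested genes). Promoter sequences are from RefSeq (GRCm38.p6), a build other than mm9, and share no coordinates with the table. The members and lists were chosen with earlier results of these data known. Besides the members and Alkbh1, the genes named are the largest called rise and fall of each list, members of counts of 5 or fewer, and fixed partners and paralogs. Ndrg3, Bnip3l, Ufsp2, Snw1, Slirp, Nrp, Mir3068, Sparc, Ero1l, Tfrc, Ldha, Pdk1 and Tceb2 were named after their values were seen. So were Col4a1, Col4a2, Col18a1, Gata6, Sox17, Foxa2, Afp, Pdgfra, Ttr and the fibroblast markers at 0. A planned comparison of protein sequences was not made. The list symbols Eno1, Pkm2, Glt25d2 and Jmjd5 matched no row and were not analysed here. The adjustment and class medians were tested on simulated data. Python 3.11.15, NumPy 2.4.6, pandas 2.3.3, statsmodels 0.14.6 and Matplotlib 3.10.9 were used.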

Additional observations from a re-analysis of the deposited data

How the results depend on the processing

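The q-value was recomputed for 20 of 70 recalculated results of single members, and all 20 kept their side of the threshold. The other 50 changed the fold change alone under the deposited q, with no call retested; 49 kept their direction, and Hif1a turned to 0.11 with equal sums. Counts under another scaling likewise keep the deposited calls and split them by the new sign. The counts of members, 7 higher and 1 lower, were 3 and 0 when at least a 2-fold difference was asked for, and with equal sums, which put Hif1a above 0, 8 and 0. The members' median of 0.66 was 0.62 with a pseudocount of 1, 0.73 as a mean, 1.32 with equal sums, 1.03 after recentring on genes of at least median level, 0.9998 less the level class median and 1.02 less the level and length class median, an alternative chosen after seeing the data. Asking for a 2-fold difference left 2 higher and 1 lower HIF regulators, 5 and 0 other HIF targets, 2 glycolytic targets, 0 lower genes of collagen modification, 3 higher collagen chains, 0 higher and 1 lower of the other hydroxylases, and 1 NDRG paralog. At q under 0.01, 7 glycolytic targets were higher, and 1 of the other hydroxylases was higher and 3 lower. Equal sums placed 7 called HIF regulators above 0 and 2 below, and 4 and 3 of the called other hydroxylases. Adjusting only over genes above the lowest 25% by level left 0 higher genes of collagen modification and 1 collagen chain, since fewer low genes were tested. The level and length classes put 1 called collagen chain below 0. The median of the HIF regulators turned to 0.084 as a mean, 0.53 with equal sums, 0.25 after recentring and 0.10 less the level class median. That of collagen modification turned to 0.0044 as a mean, 0.39 with equal sums and 0.11 after recentring, and that of the other hydroxylases to 0.33 and 0.044 under these 2 scalings. No paired analysis was possible because the table holds 1 pooled value per condition, and for the same reason leaving out a library was not run. The depth behind each value is unknown.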
